A study of Mus musculus with 4 samples.

Results

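Nmur1, Calca, Penk and Rln3 were taken by gene symbol from a comparison of lung T helper 2 (Th2) cell transcriptomes, and all 4 were found among its 11883 listed genes. They were selected on their deposited means and p-values in this same comparison, so the differences between the genotypes are a description here and were not tested. Calca, Penk and Rln3 encode precursors of secreted peptides, and Nmur1 encodes a receptor for the neuropeptide neuromedin U. The 4 samples were 2 of genotype Klrg1Cre Gata3(fl/fl), called Klrg1Cre below, and 2 of genotype Gata3(fl/fl), called control. All were on the C57BL/6 strain, and all received papain, a protease allergen, in a chronic regimen, so no group was untreated and both carried the floxed Gata3 allele. Cells came from digested lung and were sorted as live CD4+ T1/ST2+ cells. Klrg1Cre is a Cre recombinase named for Klrg1, a receptor gene of differentiated lymphocytes. No group carried it without floxed Gata3. The table's headers name the groups ILC2 deficient, taken as Klrg1Cre, and WT, taken as control because it lacks Cre. ILC2 are group 2 innate lymphoid cells. Loss of Gata3 in Th2 cells, loss of ILC2 and the Cre allele itself cannot be told apart, and ages were not given in the labels. The labels do not say whether samples of a group came from separate mice, so the authors' p-values may rest on technical spread alone.

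Neuropeptides are cut from longer precursors by convertase enzymes and act on G protein-coupled receptors of nearby cells. Neuromedin U from airway neurons acts through Nmur1, a receptor coupled to Gq and calcium, and in mouse lung Nmur1 is best known as a receptor of ILC2. Calca makes calcitonin or, by alternative splicing, calcitonin gene-related peptide (CGRP), whose receptor is made of the Calcrl and Ramp1 proteins. Penk makes proenkephalin, the source of the enkephalins, which bind opioid receptors, and Rln3 makes relaxin-3, a brain neuropeptide whose receptor is Rxfp3.

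The authors' deposited table holds 1 mean per genotype in CPM, reads scaled to each library's total, with no column for single samples. Some means could be split into whole reads of the 2 libraries behind them, and library totals worked out in this way were 26019065 and 14564426 reads for Klrg1Cre and 33379572 and 31961572 reads for control. Since their sample numbers are unknown, the libraries of a genotype are named by size, larger and smaller. In the authors' deposited table Rn45s, the ribosomal RNA precursor, took 67.1% of Klrg1Cre reads and 51.4% of control reads, while over all genes the median log2 ratio was 0.0053. Reads outside the listed genes made up a further 14.7% in Klrg1Cre and 30.8% in control, so the genotypes differed in these reads as well. T cell markers, 12 of 12 listed, summed to 1259 CPM in Klrg1Cre and 1236 CPM in control in the authors' deposited table, and Th2 markers, 14 of 15 listed, to 720.9 and 647.4 CPM in these genotypes. Macrophage markers, 13 of 13 listed with Marco at 0 in control, summed to 1656 CPM in Klrg1Cre and 2419 CPM in control in the authors' deposited table, where 7 had higher and 6 lower means and the median log2 ratio was 0.07. Chil3 alone, singled out after its values were seen, read 1124 CPM in Klrg1Cre and 1932 CPM in control (adjusted p = 0.599), and the other 12 summed to 532.3 CPM in Klrg1Cre and 486.8 CPM in control in the authors' deposited table. The 7 macrophage markers split in all libraries summed to 84.7 and 39.6 CPM in Klrg1Cre, against 56.7 and 63.1 CPM in control, with overlap. B cell markers, 5 of 8 listed with Ms4a1 at 0 in Klrg1Cre, summed to 5.57 CPM in Klrg1Cre and 6.78 CPM in control in the authors' deposited table. Of 11 mast cell or basophil markers only Hdc was listed, at 3.09 CPM in Klrg1Cre and 2.48 CPM in control. Gata3 read 293.9 CPM in Klrg1Cre and 221.4 CPM in control in the authors' deposited table, and as reads outside the floxed segment remain countable this checks nothing. The Th2 list holds Gata3, and its gap between the genotypes was about as large as that between the Th2 sums. Of the 14 listed Th2 markers, 8 had higher and 6 lower means in Klrg1Cre. Klrg1 read 4.19 CPM in Klrg1Cre and 48.4 CPM in control in the same authors' deposited table.

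The 4 genes divided evenly by direction. Nmur1 and Calca had higher means in Klrg1Cre cells, and Penk and Rln3 had lower means. In the authors' deposited table the log2 ratios of Klrg1Cre over control were 1.69 for Nmur1, 0.87 for Calca, -1.32 for Penk and -1.59 for Rln3. By the same ratio, 1.41% of all listed genes lay above Nmur1, 4.18% above Calca, 2.70% below Penk and 1.83% below Rln3. At an adjusted p of 0.05 the authors' deposited table called 7 genes (0.0589% of those listed), with 0.0252% higher and 0.0337% lower in Klrg1Cre, and 0 of the 4 genes were among them. At an adjusted p below 0.1 it held 22 genes (0.185%), of which Nmur1, Penk and Rln3 were 3. At an unadjusted p below 0.05 it held 843 genes (7.09%), 3.72% higher and 3.37% lower in Klrg1Cre, and 4 of the 4 genes were among these, 2 in each direction. Nothing can be read from these counts, since the same values chose the genes. Whether a change in bulk RNA reflects fewer cells expressing a gene or less RNA per cell cannot be told apart.

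**Figure D1:**
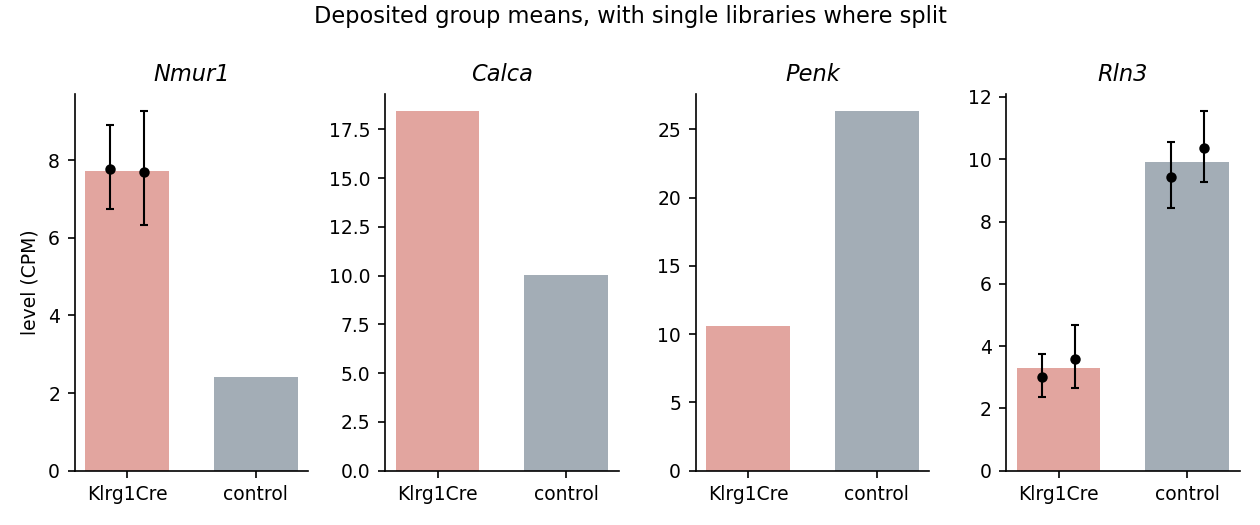
Level in CPM (linear axes, a separate scale per gene) of Nmur1, Calca, Penk and Rln3 in Klrg1Cre and control cells. Bars are the authors' deposited group means, points are single libraries with exact 95% Poisson intervals, drawn where the mean could be split into whole reads, with the larger library on the left. Nmur1 and Calca stand higher in Klrg1Cre, at 7.73 and 18.4 CPM, and Penk and Rln3 stand lower, at 10.6 and 3.28 CPM.

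**Figure D2:**
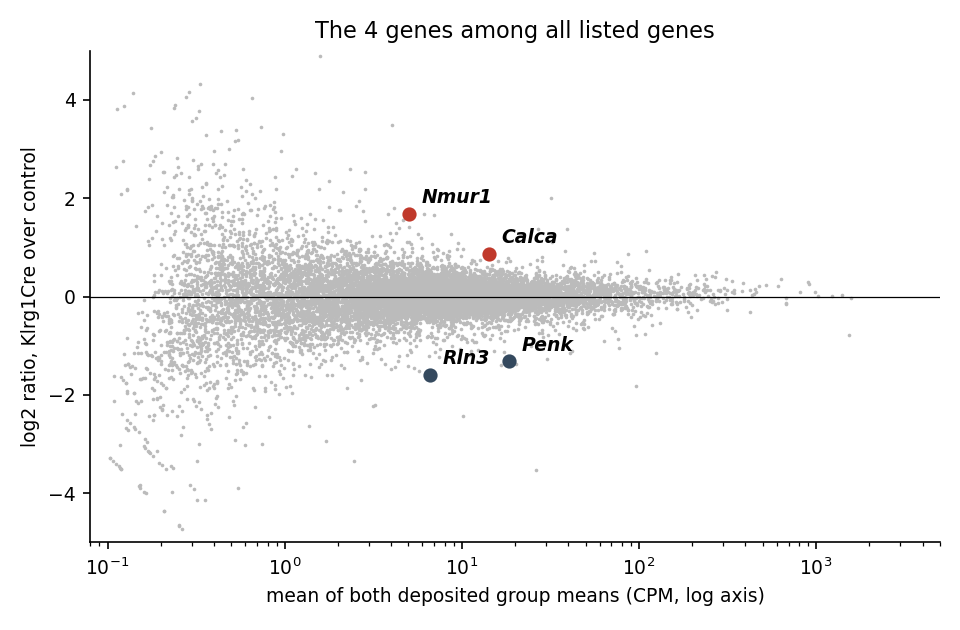
Each grey point is a listed gene, placed by the mean of its 2 deposited group means in CPM (log axis) and its log2 ratio of Klrg1Cre over control; 59 genes with ratios beyond 5 either way and 2 genes above 5000 CPM lie outside the axes. Of the 4 genes, Nmur1 and Calca lie above 0 (log2 1.69 and 0.87) and Rln3 and Penk below it (-1.59 and -1.32).

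The promoter letters are shown because the gene floxed in these mice, Gata3, encodes a factor that binds GATA motifs, and because cyclic AMP acts through factors that bind the TGACG half-site. They come from RefSeq (build GRCm38.p6) and are the 250 bases before each start, read on the gene's own strand, here the minus strand. Entries matched 3 of the 4 genes, Rln3, Calca and Nmur1, with 2 starts for Nmur1 and none for Penk. Capitals mark GATAA or TGACG on either strand, so TTATC is GATAA on the opposite strand.
Rln3 (chr8:84044980-84045229, minus strand): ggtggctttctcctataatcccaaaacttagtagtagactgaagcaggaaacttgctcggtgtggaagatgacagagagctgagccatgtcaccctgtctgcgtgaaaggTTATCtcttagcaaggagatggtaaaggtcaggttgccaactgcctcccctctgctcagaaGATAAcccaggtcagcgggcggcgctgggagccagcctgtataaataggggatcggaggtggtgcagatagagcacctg
Calca (chr7:114636358-114636607, minus strand): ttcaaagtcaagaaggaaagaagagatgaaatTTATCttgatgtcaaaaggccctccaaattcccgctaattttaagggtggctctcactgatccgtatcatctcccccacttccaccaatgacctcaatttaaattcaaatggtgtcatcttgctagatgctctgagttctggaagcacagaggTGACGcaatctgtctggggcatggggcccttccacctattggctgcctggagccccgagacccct
Nmur1, start 1 (chr1:86389362-86389611, minus strand): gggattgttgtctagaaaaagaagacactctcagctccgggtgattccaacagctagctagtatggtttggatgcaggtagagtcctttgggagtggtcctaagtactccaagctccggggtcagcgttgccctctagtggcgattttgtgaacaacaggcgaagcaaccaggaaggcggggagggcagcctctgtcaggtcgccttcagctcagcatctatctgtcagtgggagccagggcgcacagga
Nmur1, start 2 (chr1:86388142-86388391, minus strand): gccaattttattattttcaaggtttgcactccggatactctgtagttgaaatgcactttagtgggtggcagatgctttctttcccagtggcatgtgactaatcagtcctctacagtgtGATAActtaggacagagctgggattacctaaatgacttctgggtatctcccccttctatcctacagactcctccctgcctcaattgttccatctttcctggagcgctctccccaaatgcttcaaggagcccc
Rln3 had 2 GATAA matches, whose first letters lay 140 and 79 bases before the start. Calca had 1 GATAA match at 218 bases and 1 TGACG match at 65 bases before its start. Start 1 of Nmur1 had 0 GATAA and 0 TGACG matches, and start 2 had 1 GATAA match at 132 bases. Other forms of the GATA motif, such as GATAG, were not counted over the windows and are not marked. Start 1 of Nmur1, with 0 GATAA matches, holds the letters CTATC, which are GATAG on the opposite strand. A window with 0 GATAA matches may therefore still hold a GATA motif, as this one does. Of all 32851 promoter windows of this length, 22.6% held GATAA and 17.8% held TGACG on either strand, and for genes in the authors' deposited table the shares were 14.8% and 27.0%. The 2 motifs share no letters in these windows. A match describes letters only. GATAA was found in windows of Calca, Nmur1 (start 2) and Rln3, and its part in their levels was not tested.

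Nmur1, the only receptor gene among the 4, was higher in Klrg1Cre cells. Its Klrg1Cre mean was made of 202 reads in the larger library and 112 in the smaller one, which gives 7.76 and 7.69 CPM. Exact 95% Poisson intervals, which cover counting error only, were 6.73 to 8.91 CPM and 6.33 to 9.25 CPM. The 2 Klrg1Cre libraries therefore differed by less than counting error. The control mean in the authors' deposited table was 2.40 CPM, and no whole-read split was found for it. From the library totals it corresponds to between 154 and 160 reads over both control libraries together. The authors' deposited table gave a 3.22-fold higher mean in Klrg1Cre, with p = 1.0e-04 and adjusted p = 0.0701. The control mean of 2.40 CPM allows no control library above 2 times that value, since levels cannot be negative. For Nmur1 both Klrg1Cre libraries therefore lay above both control libraries. Such a gap was seen for 19.3% of all genes split in every library.

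Of the other genes of the neuromedin system, the ligand genes Nmu and Nms and the second receptor gene Nmur2 were not among the listed genes, so Nmur1 was the 1 listed gene of 4. Markers of ILC2, the lung cells in which Nmur1 is best known, were lower in sum in Klrg1Cre. Of 15 ILC2 markers, 14 were listed in the authors' deposited table (Hey1 was not), 5 with higher and 9 with lower means, and their summed level was 332.9 CPM in Klrg1Cre and 492.2 CPM in control. For the 10 ILC2 markers split in all libraries the sums were 226.3 and 214.1 CPM in Klrg1Cre, against 347.5 and 368.4 CPM in control. The list holds Klrg1 itself, the gene the Cre is named for, and the other 13 listed markers summed to 328.7 CPM in Klrg1Cre and 443.8 CPM in control in the authors' deposited table. Below an unadjusted p of 0.05 there were 4 lower and 3 higher markers, against 3.37% and 3.72% of all genes, and 0 passed the adjusted p. Much of the lower sum lay in Icos, at 80.8 CPM in Klrg1Cre and 136.9 CPM in control, and Arg1, at 53.9 CPM in Klrg1Cre and 98.5 CPM in control, in the authors' deposited table. The 3 higher ones there were the cytokine genes Il5, at 12.4 CPM in Klrg1Cre and 5.08 CPM in control, and Il13, at 12.4 CPM in Klrg1Cre and 6.33 CPM in control, and the receptor gene Kit, at 1.29 CPM in Klrg1Cre and 0.356 CPM in control (adjusted p = 0.289, 0.265 and 0.637 in the authors' deposited table). Several of these markers, such as Icos, Rora, Il5 and Il13, are also expressed by Th2 cells. In the larger and smaller libraries Arg1 stood at 70.8 and 37.0 CPM in Klrg1Cre, against 106.4 and 90.6 CPM in control. Which cells the Arg1 reads came from was not tested. The part of ILC2 in the Nmur1 level was not tested. Downstream of the receptor, 28 of 28 Gq and calcium signalling genes were listed, with a median log2 ratio of -0.04 beside 0.0053 for all genes. Among those, 0 passed the adjusted p of 0.05 in the authors' deposited table. At an unadjusted p below 0.05 there were 1 with a higher mean and 3 with lower means, against 3.72% and 3.37% of all genes. The Gq alpha subunit gene most expressed here, Gna15, read 55.5 CPM in Klrg1Cre and 49.5 CPM in control in the authors' deposited table. Prkcq, encoding protein kinase C theta of the T cell receptor pathway, read 32.4 CPM against 22.3 CPM in control (unadjusted p = 0.0139, adjusted p = 0.589) in the authors' deposited table. Plcb4, encoding a phospholipase C that Gq activates, read 1.64 CPM in Klrg1Cre and 4.17 CPM in control (adjusted p = 0.332) in the authors' deposited table. Ppp3r1, the regulatory subunit gene of calcineurin, read 10.8 CPM against 16.1 CPM in control (adjusted p = 0.527), and Prkcb, another protein kinase C gene, 7.63 CPM against 10.8 CPM (adjusted p = 0.656), in the authors' deposited table.

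Calca had the highest level of the 4 genes in Klrg1Cre cells. The authors' deposited table listed it at 18.4 CPM in Klrg1Cre and 10.1 CPM in control, 1.83-fold higher in Klrg1Cre, with p = 0.0304 and adjusted p = 0.638. No whole-read split was found for either mean, so its single libraries are not shown. The means correspond to between 537 and 958 reads over both Klrg1Cre libraries and between 643 and 671 reads over both control libraries. The table has 1 row for Calca, so calcitonin and CGRP transcripts are not separated. Of the 3 peptide genes Calca differed least between the genotypes, and its p lay far from those of the other genes.

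The receptor genes for CGRP were listed as well. Ramp1, which makes Calcrl a CGRP receptor, read 53.8 CPM in Klrg1Cre and 70.6 CPM in control in the authors' deposited table, 1.31-fold lower (p = 0.0201, adjusted p = 0.610). Calcrl itself read 7.27 CPM in Klrg1Cre and 7.12 CPM in control in the authors' deposited table. By library it stood at 6.99 and 7.55 CPM in Klrg1Cre, against 6.35 and 7.88 CPM in control, so the Klrg1Cre values lay within the control values. Ramp3, which turns Calcrl into an adrenomedullin receptor, read 4.73 CPM in Klrg1Cre and 4.60 CPM in control in the authors' deposited table. Crcp, encoding a CGRP receptor component, read 12.5 CPM in Klrg1Cre and 10.4 CPM in control in the authors' deposited table. The related genes Calcb, Calcr, Ramp2, Adm, Adm2 and Iapp were not among the listed genes. Over the 4 listed genes of this family other than Calca, 0 passed the adjusted p, 3 had higher and 1 lower means, and the median log2 ratio was 0.04.

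Lung neuroendocrine cells and sensory nerve endings are the textbook sources of CGRP in the airway. Of 23 markers of neuroendocrine cells and neurons, 20 were not among the listed genes, among them Chga, Uchl1, Resp18 and Trpv1. The other 3, Syp, Prph and Stmn2, summed to 2.03 CPM in Klrg1Cre and 1.02 CPM in control in the authors' deposited table. As for Calca, the means of Stmn2 and Prph were higher in Klrg1Cre there. Stmn2 read 0.704 CPM in Klrg1Cre and 0.0906 CPM in control (7.77-fold, p = 0.0187, adjusted p = 0.606), and Prph 0.794 CPM in Klrg1Cre and 0.123 CPM in control (6.44-fold, p = 0.0195, adjusted p = 0.610), in the authors' deposited table. Few reads lay behind these, with 17 and 11 reads of Stmn2 in the Klrg1Cre libraries and 5 and 1 in the control ones. Syp read 0.529 CPM in Klrg1Cre and 0.807 CPM in control in the authors' deposited table. The part of such cells in the Calca level was not tested. Epithelial markers, 7 of 12 listed, summed to 17.3 CPM in Klrg1Cre and 18.1 CPM in control there.

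CGRP receptors signal through Gs and cyclic AMP. Of 32 genes of this pathway, 32 were listed and 0 passed the adjusted p in the authors' deposited table, with a median log2 ratio of 0.0066. At an unadjusted p below 0.05 there were 2 higher and 4 lower, against 3.72% and 3.37% of all genes. The Gs alpha subunit gene Gnas read 48.9 CPM in Klrg1Cre and 38.6 CPM in control (adjusted p = 0.684), and the adenylyl cyclase gene Adcy7 91.0 CPM against 73.2 CPM (adjusted p = 0.698), in the authors' deposited table. Lower in Klrg1Cre were Pde4a, encoding a cyclic AMP phosphodiesterase, at 6.36 CPM against 13.3 CPM (adjusted p = 0.284), and Crem, encoding a cyclic AMP-responsive transcription factor, at 12.6 CPM against 19.9 CPM (adjusted p = 0.551), in the authors' deposited table. The CREB coactivator gene Crtc3 read 14.6 CPM against 19.4 CPM (adjusted p = 0.658) and Adcy9 0.380 CPM against 1.17 CPM (adjusted p = 0.698) in the authors' deposited table. These genes moved both ways, and none of them passed the adjustment.

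Penk, the proenkephalin gene, was lower in Klrg1Cre cells. The authors' deposited table listed it at 10.6 CPM in Klrg1Cre and 26.3 CPM in control, 2.49-fold lower, with p = 1.75e-04 and adjusted p = 0.0980. The means correspond to between 308 and 549 reads over both Klrg1Cre libraries and between 1682 and 1756 reads over both control libraries, and neither could be split. In the GENCODE M21 annotation (GRCm38) Penk overlaps A830012C17Rik, a noncoding gene on the opposite strand that is not among the listed genes; whether the counting used strand is not stated. Of the opioid family, 2 of 9 genes were listed, Penk and Ogfr, the gene of a receptor for opioid growth factor that is unrelated to the classical ones. Ogfr read 32.9 CPM in Klrg1Cre and 33.7 CPM in control in the authors' deposited table. The opioid receptor genes Oprd1, Oprm1, Oprk1 and Oprl1 and the precursor genes Pdyn, Pomc and Pnoc were not among the listed genes. Thus a peptide precursor was measured here without any listed classical receptor for it. The lowest listed mean over both genotypes was 0.09 CPM, and the rule for listing a gene is not given in the sources used here. A gene that is not listed, here or in other families, is therefore not shown to be unexpressed. Enkephalin receptors act through Gi, whose alpha subunit gene Gnai2 read 76.8 CPM in Klrg1Cre and 58.5 CPM in control in the authors' deposited table (adjusted p = 0.551). Of 22 genes of Gi signalling and receptor desensitisation, 17 were listed, 12 with higher and 5 with lower means, and 0 passed the adjusted p. Rgs10, which encodes an inhibitor of Gi signalling, read 31.8 CPM in Klrg1Cre and 48.2 CPM in control in the authors' deposited table (p = 0.00151, adjusted p = 0.268). By library Rgs10 stood at 32.7 and 30.9 CPM in Klrg1Cre, against 49.3 and 47.0 CPM in control, with no overlap. Such a gap with Klrg1Cre lower was seen for 18.3% of all genes split in every library, and with Klrg1Cre higher for 19.3%.

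Rln3 was the only gene of the 4 whose reads could be split in all libraries. Klrg1Cre libraries held 78 reads in the larger and 52 in the smaller, or 2.998 and 3.57 CPM, against 315 and 331 reads, or 9.44 and 10.4 CPM, in control. The exact 95% Poisson intervals were 2.37 to 3.74 and 2.67 to 4.68 CPM in Klrg1Cre, against 8.42 to 10.5 and 9.27 to 11.5 CPM in control. Both Klrg1Cre libraries lay below both control libraries, as did 18.3% of all split genes (19.3% had the opposite gap), with counting intervals that did not meet, and libraries of 1 genotype lay within each other's intervals. Rln3 averaged 3.28 ± 0.40 CPM in Klrg1Cre and 9.90 ± 0.65 CPM in control (SD, n = 2 each). The authors' deposited table gave a 3.01-fold lower mean, with p = 8.4e-05 and adjusted p = 0.0701.

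In the GENCODE M21 annotation of the mouse genome (GRCm38), Rln3 lies on chromosome 8 next to Il27ra, the interleukin-27 receptor gene, on the same strand with no gene between them. The authors' deposited table listed Il27ra at 66.2 CPM in Klrg1Cre and 59.6 CPM in control, 1.11-fold higher (adjusted p = 0.828). By library Il27ra stood at 62.8 and 69.6 CPM in Klrg1Cre, against 59.6 CPM in each control library. Set within each library, Rln3 had 4.78 and 5.13 reads per 100 Il27ra reads in the larger and smaller Klrg1Cre libraries, and 15.8 and 17.4 in the control ones. Il27ra was thus not lower in Klrg1Cre where Rln3 was, and this within-library ratio does not depend on how libraries were scaled. The neighbour on the other side, Rfx1, read 27.4 CPM in Klrg1Cre and 24.04 CPM in control in the authors' deposited table (adjusted p = 0.815).

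**Figure D3:**
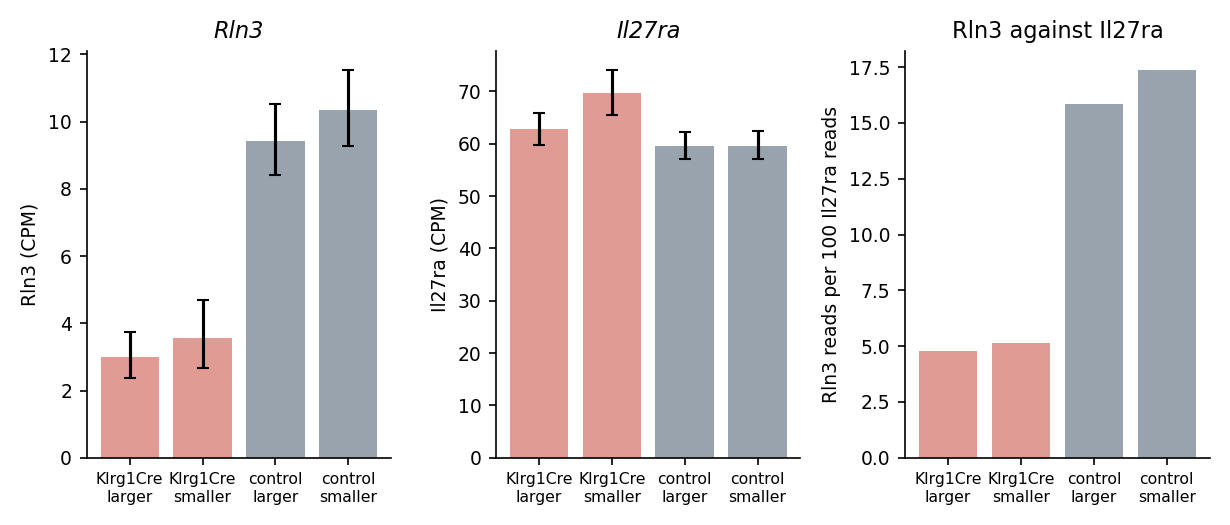
Rln3 and Il27ra levels in CPM with exact 95% Poisson intervals (left and middle) and Rln3 reads per 100 Il27ra reads (right) in the larger and smaller library of Klrg1Cre and of control, all on linear axes from 0. Rln3 is lower in both Klrg1Cre libraries (2.998 and 3.57 against 9.44 and 10.4 CPM) while Il27ra is not.

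Among the nearest listed genes on either side of the other 3 genes, 0 passed the adjusted p. Pde3b, a cyclic AMP phosphodiesterase gene and the listed gene nearest to Calca on 1 side, read 4.36 CPM in Klrg1Cre and 2.65 CPM in control in the authors' deposited table (adjusted p = 0.729). By library it stood at 5.42 and 3.30 CPM in Klrg1Cre, against 3.03 and 2.28 CPM in control. 1110004F10Rik on the other side of Calca had an adjusted p of 0.956 there. Chchd7 and Impad1 beside Penk, and Ptma and C130036L24Rik beside Nmur1, had adjusted p between 0.867 and 0.948 in the authors' deposited table.

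Of the relaxin family, 2 of 9 genes were listed. Insl6, a relative with a role in sperm production, read 0.487 CPM in Klrg1Cre and 0.720 CPM in control in the authors' deposited table (adjusted p = 0.839). The relaxin gene Rln1 and the receptor genes Rxfp1, Rxfp2, Rxfp3 and Rxfp4 were not among the listed genes.

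Regulatory T cell markers were lower together with Penk and Rln3. The authors' deposited table listed 10 of 10 such markers, 9 of them with lower means, each of these 9 below an unadjusted p of 0.05 (3.37% of all genes were lower at that p), with a median log2 ratio of -1.11, and their summed level was 229.9 CPM in Klrg1Cre and 482.0 CPM in control. At the adjusted p of 0.05 there was 1 of the 10, against 0.0337% of all genes in that direction. It was Itgae, encoding the integrin CD103, at 42.8 CPM in Klrg1Cre and 150.9 CPM in control in the authors' deposited table (adjusted p = 0.00949). Foxp3, their lineage factor, read 50.6 CPM against 104.6 CPM in control in the authors' deposited table. For the 3 markers split in all libraries, Ikzf2, Lrrc32 and Itgb8, the sums in the larger and smaller libraries were 15.9 and 31.03 CPM in Klrg1Cre, against 40.7 and 57.2 CPM in control. In both genotypes the smaller library held the higher sum of these 3 markers, and it also held the higher Rln3 level, at 3.57 CPM beside 2.998 CPM in Klrg1Cre and 10.4 CPM beside 9.44 CPM in control, differences of Rln3 within counting error. None of these 10 markers was at 0 in either genotype, and their part in the Penk and Rln3 levels was not tested.

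Levels of different genes can be set side by side only per length, so each deposited mean was divided by the length of the gene's longest coding transcript in GENCODE M21. These lengths were 1534 bases for Nmur1, 994 for Calca, 1449 for Penk and 634 for Rln3. In Klrg1Cre cells the order in CPM per kilobase was Calca at 18.5, Penk at 7.29, Rln3 at 5.18 and Nmur1 at 5.04. In control cells it was Penk at 18.2, Rln3 at 15.6, Calca at 10.1 and Nmur1 at 1.57. Calca thus led in Klrg1Cre and stood behind Penk and Rln3 in control. Rln3 and Nmur1 did not differ beyond their spread in Klrg1Cre, where the libraries held 4.73 and 5.63 CPM per kilobase of Rln3 and 5.06 and 5.01 of Nmur1. For neighbours in the order that involve Calca or Penk the spread is unknown. Of the summed CPM per kilobase of the 3 peptide genes, 31.0 in Klrg1Cre and 43.9 in control, Calca made up 59.8% in Klrg1Cre and 23.1% in control. Penk made up 23.5% and Rln3 16.7% in Klrg1Cre, against 41.4% and 35.6% in control. Among the 11264 listed genes with a coding transcript, Nmur1 stood at percentile 74.3 per kilobase in Klrg1Cre and 46.9 in control.

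**Figure D4:**
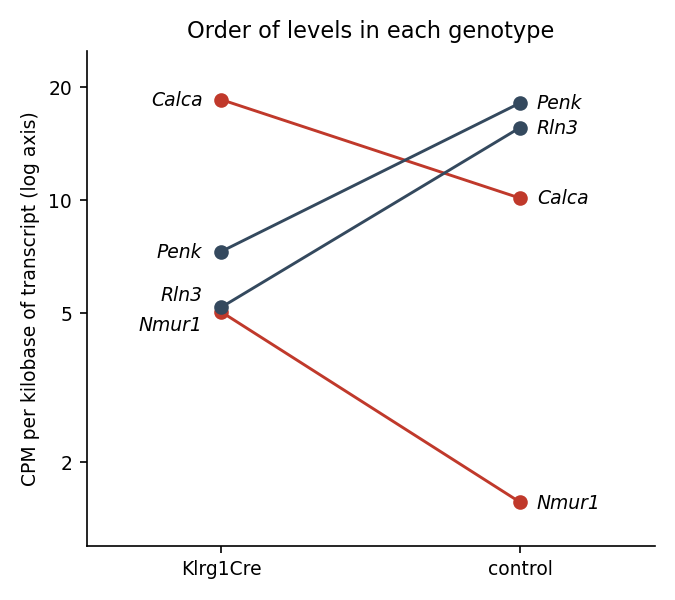
Deposited mean per kilobase of the longest coding transcript (CPM per kilobase, log axis) for the 4 genes in Klrg1Cre and control, with a line per gene, red where Klrg1Cre is higher and dark where it is lower. The lines of Calca and of Penk and Rln3 cross, as Calca stands first in Klrg1Cre at 18.5 and behind both in control at 10.1 CPM per kilobase.

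The wider set of peptide genes was sparse. Of 41 other neuropeptide and hormone precursor genes, 3 were listed and 0 passed the adjusted p in the authors' deposited table. Npy, encoding neuropeptide Y, read 0.395 CPM in Klrg1Cre and 3.04 CPM in control in the authors' deposited table, 7.68-fold lower (p = 0.00686, adjusted p = 0.473). Its libraries held 17 and 2 reads, or 0.653 and 0.137 CPM, in Klrg1Cre, against 42 and 154 reads, or 1.26 and 4.82 CPM, in control, so the smaller control library carried most of the control level. Nmb, encoding neuromedin B, which despite its name binds other receptors than neuromedin U, read 2.65 CPM in Klrg1Cre and 2.15 CPM in control in the authors' deposited table. The endothelin gene Edn3 read 1.14 CPM in Klrg1Cre and 2.21 CPM in control in the authors' deposited table. Neither passed. Of 60 other neuropeptide and transmitter receptor genes, 12 were listed, 5 with higher and 7 with lower means, 0 passing, and 0 below an unadjusted p of 0.05. The highest were the adenosine receptor gene Adora2a at 22.5 CPM in Klrg1Cre and 22.3 CPM in control, and Vipr2, a receptor gene for vasoactive intestinal peptide, at 11.02 CPM in Klrg1Cre and 11.8 CPM in control, in the authors' deposited table.

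Genes that make or remove active peptides showed no shared direction. Of 22 prohormone processing genes, 11 were listed, 6 with higher and 5 with lower means, and the median log2 ratio was 0.05. Furin, the convertase of the secretory pathway, read 78.2 CPM in Klrg1Cre and 75.5 CPM in control in the authors' deposited table. Pcsk1, the prohormone convertase that cuts proenkephalin, read 3.42 CPM in Klrg1Cre and 4.11 CPM in control there, with libraries of 2.65 and 4.19 against 3.77 and 4.44 CPM that overlap. Pcsk2, the other main neuroendocrine convertase, was not among the listed genes, and Cpe and Pam, which trim and amidate peptides, were below 1 CPM in both genotypes. Of 14 peptide-degrading enzyme genes, 10 were listed, 7 with higher and 3 with lower means, and the median was 0.13. Neither group had a gene at an unadjusted p below 0.05. Over all 11 gene groups, 119 of 248 genes other than the 4 were listed, 0 passed the adjusted p of 0.05 in the authors' deposited table, and 14 were below an unadjusted 0.05 (11.8%, against 7.09% of all genes), 4 higher and 10 lower.

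**Figure D5:**
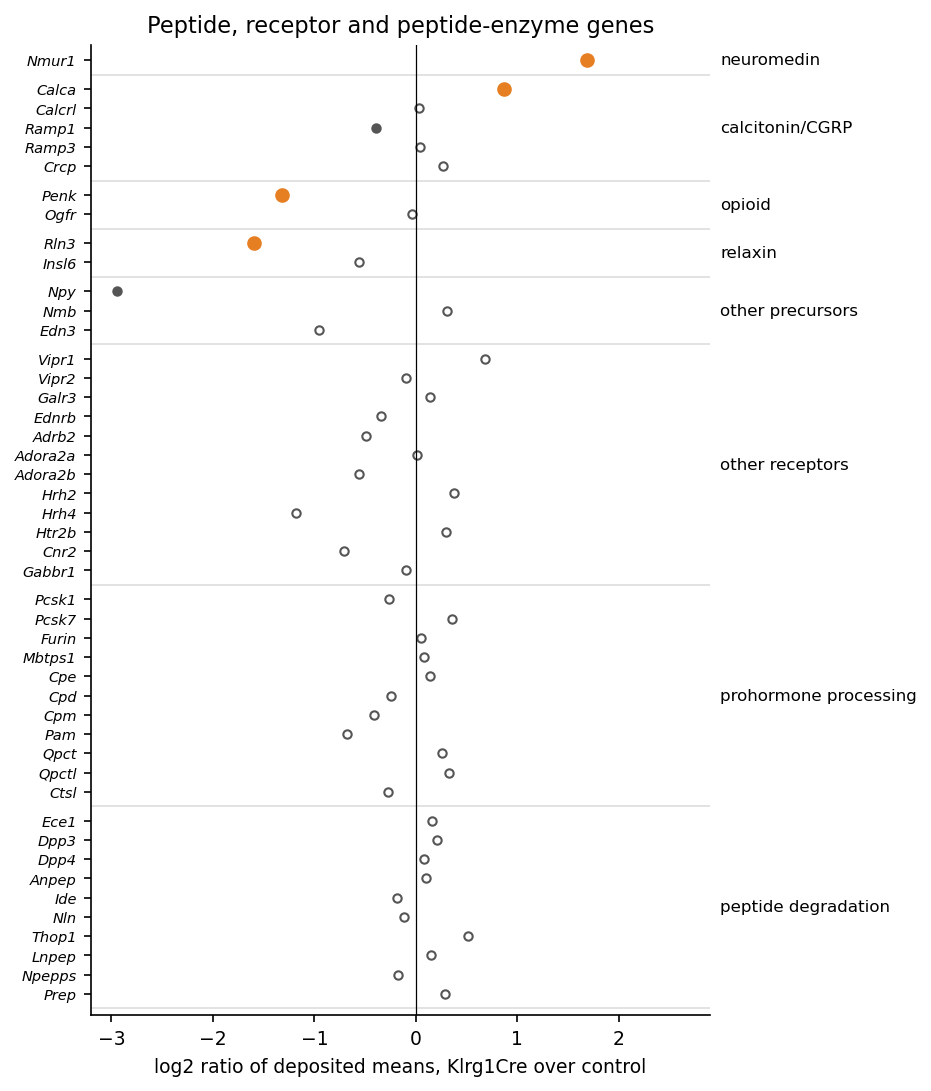
Log2 ratio of the authors' deposited means, Klrg1Cre over control, for listed genes of peptide families, receptors and peptide enzymes, with the 4 genes in orange, others in grey, and filled points where the authors' unadjusted p was below 0.05. Besides the 4 genes only Ramp1 (-0.39) and Npy (-2.94) are filled, and the peptide enzymes lie on both sides of 0.

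The genes whose levels were most like each of the 4 were found by Euclidean distance on log2(CPM + 1). For Rln3, over the 4 libraries of 5351 split genes, the nearest were Mast4, Lrrc32 and Rell1, at distances of 0.63, 0.72 and 0.72. By library Mast4 stood at 3.19 and 3.30 CPM in Klrg1Cre, against 6.68 and 7.42 CPM in control. For the others the distance ran over the 2 deposited means of 11883 genes. The nearest to Nmur1 were Fes, Tbc1d2 and Tppp3 (0.14, 0.15 and 0.24), to Calca Cxcr3, Pim2 and Trib3 (0.06, 0.09 and 0.18) and to Penk Gimap7, Tnfrsf9 and Jcad (0.15, 0.18 and 0.21). Tnfrsf9, encoding the costimulatory receptor 4-1BB, and Lrrc32, encoding a TGF-beta docking protein, are on the regulatory T cell list. The other nearest genes of Penk and Rln3, namely Gimap7, Jcad, Mast4 and Rell1, are not. Such nearness restates the levels on which the 4 genes were chosen, so no link to a cell type can be read from it.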

How the data were processed

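RNA from 4 samples of sorted lung Th2 cells was sequenced, 2 per genotype. The submitters' processing notes name STAR, Partek and the build mm9, without versions. The deposited group means are in CPM, with an offset of 0.0001 CPM added by the authors. The p-values were deposited by the authors, their model is not given in the sources used here, and the adjusted ones equal a Benjamini-Hochberg adjustment over all 11883 genes. The deposited ratio is the quotient of the means, and the deposited signed fold change, a score, gives the same with a sign. The deposited signal per gene, headed total counts, equals 2 times the sum of both means and was not used. A table of means holds no spread, so no test was run here.

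Means below 20000 CPM were split into whole reads of 2 libraries where exactly 1 split came within 1e-08 reads, which held for 5351 genes (45.0%) in both groups; this was tested on simulated data. Python 3.11.15, numpy 2.4.6, pandas 2.3.3 and scipy 1.17.1 were used. The 4 genes, the 11 gene groups and the 9 marker lists were chosen with earlier results of these data known; 1 marker of these lists is not reported here. Genes named are the 4, those of a group below an unadjusted p of 0.05 or among its most abundant, annotated neighbours, and the 3 most alike; single marker genes were named after their values were seen. Alternatives were other pseudocounts, scalings, a filter at 1 CPM, other thresholds and leaving out each library.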

Additional observations from a re-analysis of the deposited data

How the results depend on the processing

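All 4 genes kept the direction of their log2 ratio under every alternative run. With log2(mean + 1) the ratio was 1.36 for Nmur1 and -1.35 for Rln3, and with log2(mean + 5) it was 0.78 for Nmur1, 0.64 for Calca, -1.01 for Penk and -0.85 for Rln3. Scaling to all reads other than Rn45s shifts every gene by 0.57, and gave 2.25 for Nmur1, 1.44 for Calca, -0.75 for Penk and -1.03 for Rln3. Scaling to the listed genes other than Rn45s shifts every gene by -0.026, and gave 1.66 for Nmur1, 0.85 for Calca, -1.34 for Penk and -1.62 for Rln3. Leaving out each library gave 1.68 to 1.69 for Nmur1 (Klrg1Cre libraries only) and -1.72 to -1.47 for Rln3; Calca and Penk could not be split, so no library could be left out for them.

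Under the scaling to all reads other than Rn45s the group medians became 0.60 for the calcitonin and CGRP family, 0.62 for prohormone processing, 0.69 for peptide degradation, -0.39 for other precursors, 0.47 for other receptors, 0.52 for Gq, 0.57 for Gs and 0.66 for Gi signalling, all by the same shift. The median of the 3 other precursors was -0.59 with log2(mean + 1) and -0.23 with log2(mean + 5). Leaving out each library, over genes split in all libraries, the medians ranged from -0.25 to 0.012 for prohormone processing (-0.26 with all), -0.17 to 0.35 for peptide degradation (0.11 with all) and -0.65 to 0.17 for other receptors (-0.10 with all), -0.025 to 0.20 for the calcitonin and CGRP family (0.04 with all), -0.24 to 0.07 for Gq (-0.03 with all) and -0.04 to 0.25 for Gi signalling (0.12 with all). None of these 6 medians kept its sign when each library was left out; the cause was not tested. The Gs median ranged from -0.07 to -0.02 (-0.02 with all), though it was 0.0066 over all listed genes. Of the other genes of the 11 groups, 0 were called at the main threshold, at an adjusted p of 0.1 and over genes of at least 1 CPM, and 14 at an unadjusted p of 0.05. No paired analysis was possible because the table has no column for a single sample and the split libraries carry no replicate number. Counting error is wide where few reads lie behind a value, as for Npy with 17 and 2 reads in Klrg1Cre.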
